A study of Homo sapiens with 12 samples.

Results

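The 10 genes described here encode the subunits of activator protein 1 (AP-1) and its close partners: FOS, FOSB, FOSL1 and FOSL2 of the FOS family, JUN, JUNB and JUND of the JUN family, and ATF3, BATF and BATF3. They were taken by name, and all 10 were found among the 62696 genes of the count tables. Their mRNA was measured by bulk RNA-seq of poly-A RNA in SKBR3 and MDA-MB-453, established human breast cancer cell lines of the HER2 subtype. In each line, 3 libraries came from untreated (UT) cells and 3 from cells given TWEAK, a secreted ligand of the TNF superfamily that binds the receptor Fn14. Cells of all 4 groups were starved in Opti-MEM for 8 h; TWEAK was given at 10 ng/ml for 48 h and replenished after 24 h. The labels repeat that text for UT libraries and do not say what those cells received in its place. The study calls the 3 libraries of a group biological replicates. It states that its cell line experiments were repeated independently on different days, while the labels give only a replicate number.

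AP-1 is not 1 protein but a family of dimers. A JUN protein pairs with another JUN protein, with a FOS protein or with an ATF or BATF protein through a leucine zipper, and the dimer binds short DNA elements with its basic region. FOS proteins cannot pair with each other, so they depend on a JUN partner. FOS, FOSB, JUN and JUNB are classical immediate-early genes, whose transcripts rise within minutes of a growth factor or cytokine and then fall; FOSL1, FOSL2 and JUND are later or steadier members. JUNB is often a weaker activator than JUN and competes with it for partners, BATF and BATF3 lack the activation domains of FOS and are best known in lymphocytes and dendritic cells, and ATF3 is a stress-response gene that often represses.

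Library totals ran from 24842722 to 28647209 counts in SKBR3 and from 24773003 to 35208304 in MDA-MB-453. The TWEAK replicate 2 library stood apart from its group in both lines: chi-square per degree of freedom over genes was 21.1 and 23.8 against the other SKBR3 TWEAK libraries, where other pairs of that line lay between 1.78 and 5.74, and it was 10.2 and 5.31 in MDA-MB-453, where other pairs lay between 2.09 and 2.85. All 11 markers of luminal HER2 cells were detected in all groups. Their summed level was 21666 to 27027 CPM (counts scaled to library size) in SKBR3 and 7353 to 7612 CPM in MDA-MB-453. Of markers of other cells, the summed immune list (6 genes) went from a range of 1.55 to 1.86 CPM in UT to 22.2 to 24.7 CPM with TWEAK in SKBR3 and from 0.15 to 0.55 CPM in UT to 1.37 to 1.84 CPM with TWEAK in MDA-MB-453, nearly all of it ITGAM, while the defining markers PTPRC and CD3E had at most 5 counts in any library. The endothelial list (4 genes) lay between 3.77 and 4.93 CPM in UT and between 6.12 and 7.35 CPM with TWEAK in SKBR3, with CDH5 going from 1.66 to 4.02 CPM, VWF at 2.74 and 2.55 CPM, and PECAM1 and KDR at 2 counts or fewer. The fibroblast list (7 genes) summed to 16.9 to 20.1 CPM in SKBR3 and 111 to 128 CPM in MDA-MB-453, mostly COL1A1. As these are bulk libraries, a change in the share of cells that express a gene and a change in RNA per cell cannot be told apart.

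Per length of the union of exons, AP-1 mRNA in both lines was mostly JUNB and JUND. In UT SKBR3 the order of levels in TPM (counts per length, scaled to a fixed sum; n = 3) was JUNB at 183 ± 13.6 (SD), JUND at 136 ± 9.53, BATF at 84.1 ± 2.29, FOSL2 at 38.8 ± 0.55, ATF3 at 28.8 ± 0.63, JUN at 23.2 ± 1.5 and FOS at 6.36 ± 0.86. FOSL1 (1.26 ± 0.32 TPM) and FOSB (1.01 ± 0.30 TPM) overlapped, and BATF3 came last at 0.097 ± 0.033 TPM. In UT MDA-MB-453 the order opened with JUND at 176 ± 7.85 TPM and JUNB at 131 ± 5.68 TPM. JUN (19.9 ± 0.20) and FOSL2 (18.4 ± 1.69) overlapped there, as did FOS (1.16 ± 0.19) and FOSB (0.97 ± 0.19), with BATF at 13.3 ± 1.36 TPM and ATF3 at 2.54 ± 0.072 TPM between the pairs. With TWEAK the order in SKBR3 was as in UT. In TWEAK-treated MDA-MB-453 JUNB (177 ± 9.24 TPM) overlapped JUND (176 ± 7.25 TPM), and FOS (2.44 ± 0.71 TPM) overlapped ATF3 (2.90 ± 0.11 TPM). These orders and overlaps are for the union of exons and can turn with another length. ATF3 has 3998 bases in its union of exons and 1940 in its canonical transcript, where FOSL2 has 7162 and 6713. With canonical lengths ATF3 would stand above FOSL2 in SKBR3.

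**Figure D1:**
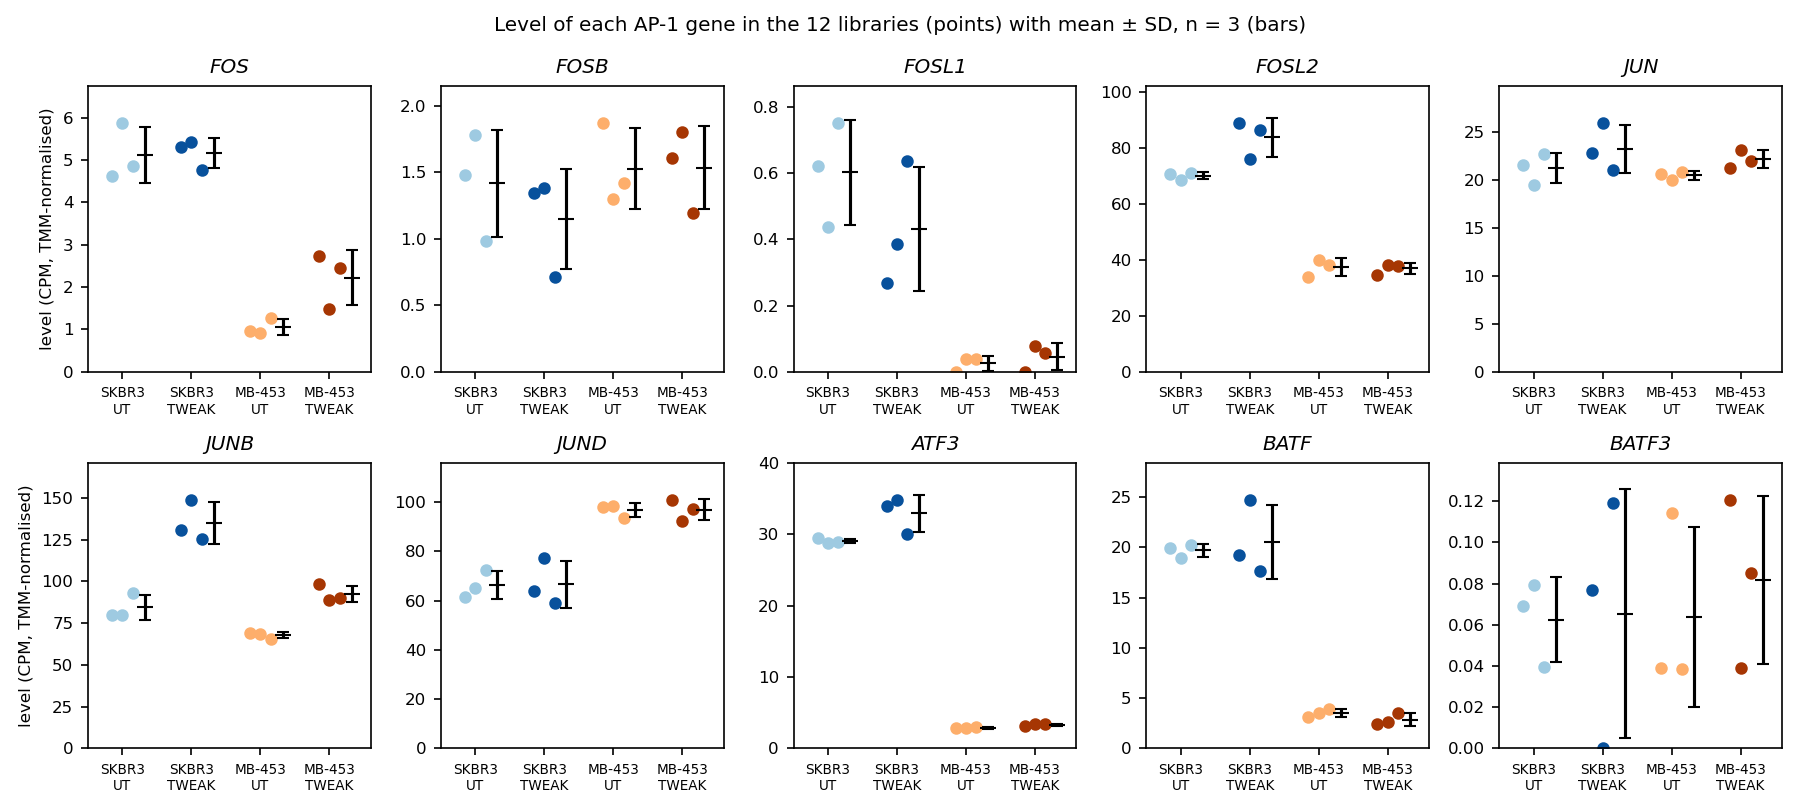
Level of each AP-1 gene (vertical axis, TMM-normalised CPM, each panel with its own scale from 0) in the 12 libraries, with UT and TWEAK libraries of SKBR3 and MDA-MB-453 (MB-453) as points and the mean ± SD of 3 libraries as bars. JUNB was higher with TWEAK in both lines without overlap, and FOS was higher without overlap in MDA-MB-453 but not in SKBR3.

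Whether TWEAK moved these genes was asked within each line, with edgeR's quasi-likelihood test fitted to all genes and Benjamini-Hochberg adjustment, and a gene was called at an adjusted p of at most 0.1. In SKBR3, 2 of the 9 genes tested were called, JUNB and FOSL2, both higher; of all 15661 genes tested, 10.4% were called and 6.6% were called higher. In MDA-MB-453, 2 of the 8 genes tested were called, JUNB and FOS, both higher, where 1.49% of all 14929 genes were called and 1.29% called higher. No AP-1 gene was called lower in either line by edgeR, 0 fell at an unadjusted p under 0.05, and DESeq2 called 0 lower. BATF3 had at most 3 counts in every library and was not tested, and FOSL1 had at most 2 counts in every MDA-MB-453 library and was not tested there.

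JUNB (chr19:12791486-12793315, plus strand, hg38, a gene of 1 exon) was the AP-1 gene called in both lines. In SKBR3 its counts were 2320, 2022 and 2363 in UT and 3396, 3870 and 3154 with TWEAK, and the mean level went from 84.5 ± 7.65 to 135 ± 12.4 CPM (log2 fold change 0.68, SE 0.085, edgeR adjusted p = 0.000435). In MDA-MB-453 its counts were 1782, 1805 and 1714 in UT and 2442, 2276 and 3170 with TWEAK, and the mean went from 68.0 ± 1.92 to 92.5 ± 5.0 CPM (0.44, SE 0.046, edgeR adjusted p = 8.47e-05). All TWEAK libraries lay above all UT libraries of their line. JUNB kept its call under all 14 alternatives in each line, with log2 fold changes of 0.61 to 0.76 in SKBR3 and 0.40 to 0.47 in MDA-MB-453. Reads in 259 bases, 14.2% of its exonic length, may also have come from HOOK2 on the opposite strand, as the strand setting of the counting is not given in the sources used here. HOOK2 itself went from 40.7 to 49.1 CPM in SKBR3 (0.27, edgeR adjusted p = 0.159) and, in MDA-MB-453, from 96.9 to 106 CPM (0.14, edgeR adjusted p = 0.199).

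JUND (chr19:18279694-18281622, minus strand, 1 exon) and JUN (chr1:58776845-58784048, minus strand, 1 exon), the other dimer partners that a FOS protein can use, were not called. JUND counts in SKBR3 were 1786, 1645 and 1839 in UT and 1659, 2008 and 1480 with TWEAK, and in MDA-MB-453 they were 2521, 2584 and 2438 against 2508, 2361 and 3415, the last in the library with the highest total. On the CPM scale JUND was at 66.5 ± 5.63 and 66.7 ± 9.54 in SKBR3 and at 96.8 ± 2.73 and 96.9 ± 4.24 in MDA-MB-453. The groups overlapped in both lines (edgeR adjusted p = 0.988 and 0.994), and the standard error of its log2 fold change was 0.10 and 0.043. JUN went from 21.3 ± 1.60 to 23.3 ± 2.47 CPM in SKBR3 (0.13, SE 0.094, edgeR adjusted p = 0.502) with overlapping groups. In MDA-MB-453 JUN was at 20.5 ± 0.44 and 22.2 ± 0.95 CPM, and its groups did not overlap, but the difference did not pass the test (0.11, SE 0.056, edgeR adjusted p = 0.505); non-overlap held for 15% of all genes tested in that line and 26.7% in SKBR3.

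The sequences around the start sites of JUNB and JUND are set side by side here because these genes take most of the JUN mRNA and only JUNB was called. They run from 210 bases before to 20 bases after the RefSeq start (GRCh38.p14, the assembly of hg38), 5′ to 3′ on the strand of the gene, at chr19:12791276-12791505 (plus) and chr19:18281603-18281832 (minus). Capitals mark the letters TATAAA in JUNB and TGACGTCA, the element that ATF and CREB dimers and JUN-ATF dimers bind, in JUND.
JUNB: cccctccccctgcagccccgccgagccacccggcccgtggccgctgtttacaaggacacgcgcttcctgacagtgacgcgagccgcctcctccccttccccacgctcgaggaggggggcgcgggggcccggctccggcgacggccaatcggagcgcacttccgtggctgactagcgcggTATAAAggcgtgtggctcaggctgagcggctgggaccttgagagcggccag
JUND: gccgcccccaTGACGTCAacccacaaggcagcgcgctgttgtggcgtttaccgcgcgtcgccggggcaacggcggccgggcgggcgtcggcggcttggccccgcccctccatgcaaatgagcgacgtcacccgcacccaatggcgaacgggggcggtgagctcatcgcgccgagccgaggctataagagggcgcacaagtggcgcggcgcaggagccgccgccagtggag
In JUNB the TATAAA begins 31 bases before the start, and in JUND the TGACGTCA begins 200 bases before it.

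Among FOS genes, FOS itself (chr14:75278826-75282230, plus strand) rose in MDA-MB-453, from a low level. Its counts were 25, 24 and 33 in UT and 68, 38 and 86 with TWEAK, or 1.05 ± 0.19 and 2.22 ± 0.65 CPM, with every TWEAK library above every UT library (log2 fold change 1.09, SE 0.238, edgeR adjusted p = 0.0424). Replicate 2, the library that stood apart, was the lowest of the TWEAK libraries. The counts are few, and the call depended on single libraries. It was lost without UT replicate 1, 2 or 3 (adjusted p = 0.170, 0.299 and 0.106 by edgeR) and without TWEAK replicate 3 (0.244). It held without TWEAK replicate 1 (0.0742) or 2 (0.000121). Across these fits the log2 fold change was 0.94 to 1.29. Over all 14 alternatives the adjusted p ran from 1.03e-05 to 0.299. In SKBR3 the FOS counts were 134, 148 and 123 in UT and 138, 141 and 120 with TWEAK, and the groups overlapped at 5.12 ± 0.66 and 5.17 ± 0.35 CPM (0.02, SE 0.126, edgeR adjusted p = 0.953).

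FOSL2 (chr2:28392448-28417317, plus strand), the FOS gene with the most mRNA in both lines, rose in SKBR3. Counts were 2049, 1736 and 1799 in UT and 2311, 1978 and 2180 with TWEAK. The mean went from 70.2 ± 1.18 to 83.9 ± 6.84 CPM, with no overlap between groups on that scale (log2 fold change 0.26, SE 0.071, edgeR adjusted p = 0.0543). On the TPM scale replicate 2, at 38.4 TPM, reached the UT libraries, at 38.4 to 39.4 TPM. Replicate 2 was again the lowest TWEAK library, at 76.1 CPM against 89.0 and 86.6 CPM. Without it the edgeR adjusted p was 2.40e-05, and without any 1 of the other 5 libraries the call was lost (UT replicate 1, 0.186; UT replicate 2, 0.241; UT replicate 3, 0.133; TWEAK replicate 1, 0.189; TWEAK replicate 3, 0.154), while the log2 fold change stayed between 0.21 and 0.33. In MDA-MB-453 its counts were 868, 1053 and 996 in UT and 862, 980 and 1336 with TWEAK, and the groups overlapped at 37.4 ± 3.26 and 37.0 ± 2.03 CPM (-0.01, SE 0.064, edgeR adjusted p = 0.961).

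FOS and FOSL2 windows are shown because each gene was called in 1 line only. They cover the same span around the RefSeq start, at chr14:75278618-75278847 and chr2:28392648-28392877 (both plus strand, GRCh38.p14), and capitals mark TATAAA in FOS and TGACTCA, the element that FOS-JUN dimers bind, in FOSL2.
FOS: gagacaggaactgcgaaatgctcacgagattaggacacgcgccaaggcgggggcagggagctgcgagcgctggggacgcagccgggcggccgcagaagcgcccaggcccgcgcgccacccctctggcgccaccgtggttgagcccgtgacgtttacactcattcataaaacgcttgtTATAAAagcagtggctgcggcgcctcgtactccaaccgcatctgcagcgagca
FOSL2: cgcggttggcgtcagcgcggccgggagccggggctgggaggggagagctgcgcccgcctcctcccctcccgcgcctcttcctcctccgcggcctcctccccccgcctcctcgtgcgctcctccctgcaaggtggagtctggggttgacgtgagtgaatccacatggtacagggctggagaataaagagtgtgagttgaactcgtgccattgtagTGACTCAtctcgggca
The TATAAA of FOS begins 33 bases before the start, and the TGACTCA of FOSL2 lies just after it.

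FOSB and FOSL1 were at the limit of what these libraries resolve. FOSB (chr19:45467995-45475179, plus strand), which also yields a truncated form known from neurons, had 18 to 45 counts per library in SKBR3 and 34 to 48 in MDA-MB-453. Its groups overlapped in both lines (SKBR3 -0.30, SE 0.288, edgeR adjusted p = 0.632; MDA-MB-453 -0.02, SE 0.212, edgeR adjusted p = 0.980). FOSL1 (chr11:65892049-65900573, minus strand), which encodes FRA1, a FOS protein linked to invasion in basal-like breast cancer, had 18, 11 and 19 counts in UT SKBR3 and 7, 10 and 16 with TWEAK (-0.49, SE 0.360, edgeR adjusted p = 0.509). In MDA-MB-453 it had 0, 1 and 1 counts in UT and 0, 2 and 2 with TWEAK, under the limit of 3 counts that a count of 0 allows.

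Of the partner genes, ATF3 (chr1:212565334-212620777, plus strand) had TWEAK libraries above UT libraries on the CPM scale in both lines without passing the test, while on the TPM scale its SKBR3 groups overlapped. In SKBR3 its counts were 855, 728 and 734 against 884, 906 and 755 (29.1 ± 0.33 and 33.0 ± 2.60 CPM; log2 fold change 0.18, SE 0.075, edgeR adjusted p = 0.212), and it was called in 2 of 14 alternatives, the fit over all 12 libraries (0.0662) and the correction for GC content and length (0.0681); over the 14 the adjusted p ran from 0.0662 to 0.487. In MDA-MB-453 the counts were 73, 73 and 79 against 79, 87 and 118 (2.89 ± 0.13 and 3.31 ± 0.12 CPM; 0.20, SE 0.122, edgeR adjusted p = 0.587). BATF (chr14:75522455-75546993, plus strand) had 478 to 579 counts in UT and 444 to 643 with TWEAK in SKBR3 (0.06, SE 0.114, edgeR adjusted p = 0.828). In MDA-MB-453 BATF had 81 to 103 and 59 to 125 counts (-0.28, SE 0.161, edgeR adjusted p = 0.573). BATF groups overlapped in both lines. BATF3 (chr1:212686417-212699840, minus strand) had 0 to 3 counts in all 12 libraries, which is not detectable at this depth.

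**Figure D2:**
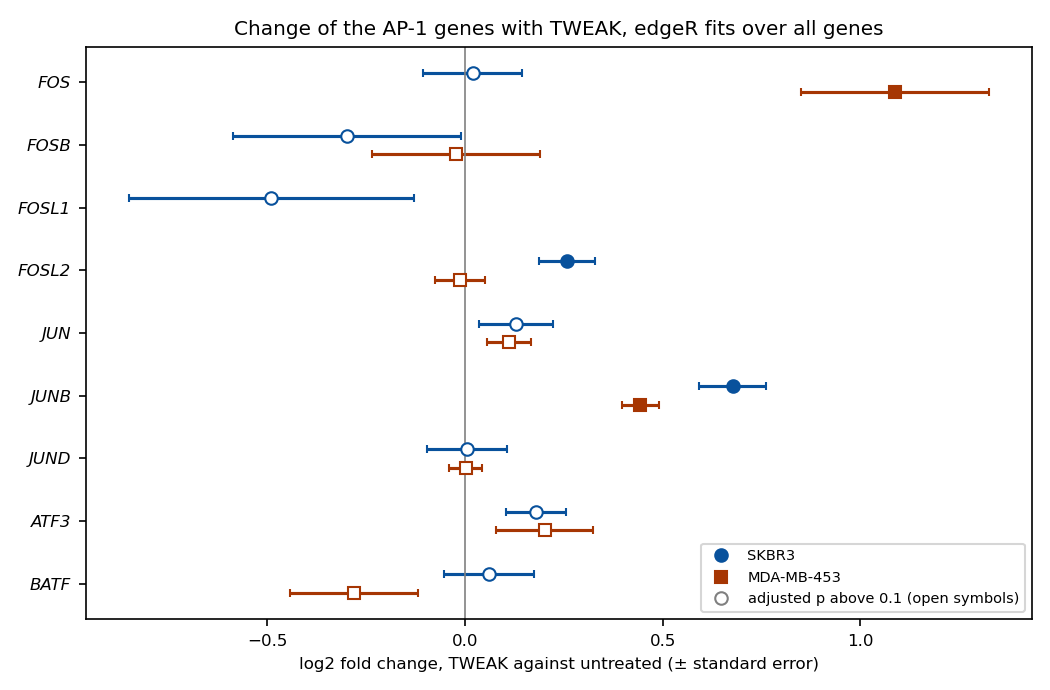
Log2 fold change with TWEAK (horizontal axis, ± standard error) of the 9 AP-1 genes tested in SKBR3 (circles) or MDA-MB-453 (squares), with filled symbols for an edgeR adjusted p of at most 0.1. JUNB is filled in both lines at 0.68 and 0.44, FOSL2 in SKBR3 at 0.26 and FOS in MDA-MB-453 at 1.09.

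Whether the lines differed in their change with TWEAK was tested with an interaction term in a fit over all 12 libraries. Of 9 AP-1 genes tested 1 was called, FOS, whose change was larger in MDA-MB-453 by 1.06 on the log2 scale (SE 0.275, edgeR adjusted p = 0.0528), beside 3.37% of all 17201 genes called. That call was lost without UT SKBR3 replicate 2 (0.138), UT MDA-MB-453 replicate 1 (0.154) or 2 (0.177), or TWEAK MDA-MB-453 replicate 1 (0.146) or 3 (0.186), and over the 19 alternatives the difference lay between 0.92 and 1.26 and the adjusted p between 0.00169 and 0.186. FOSL2, called in SKBR3 alone, did not pass this test (-0.28, SE 0.103, edgeR adjusted p = 0.248), although it passed without TWEAK SKBR3 replicate 2 (0.0133) and with a correction for GC content and length (0.0771), with adjusted p from 0.0133 to 0.552 over the 19 alternatives. JUNB likewise was not called (-0.24, SE 0.10, edgeR adjusted p = 0.356) except with that correction (0.0302, the lowest of a range up to 0.624).

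The resting levels of the AP-1 genes were compared between UT SKBR3 and UT MDA-MB-453, on CPM scaled over all 12 libraries. There 8 of 9 genes tested were called, 7 higher in SKBR3 and JUND lower, but 84.2% of all genes were called between the lines and 43.5% were called higher in SKBR3, so the count is read beside a background in which most genes differ. Both partner genes tested were higher in SKBR3: ATF3 was at 30.4 CPM in SKBR3 and 2.76 CPM in MDA-MB-453 (log2 fold change 3.46, SE 0.084, edgeR adjusted p = 1.29e-16), and BATF was at 20.6 and 3.37 CPM (2.61, SE 0.140, edgeR adjusted p = 8.76e-12). FOS was at 5.34 and 1.01 CPM (2.40, SE 0.199, edgeR adjusted p = 4.26e-09). FOSL2 was 2.05-fold higher in SKBR3, at 73.2 against 35.7 CPM (1.03, SE 0.073, edgeR adjusted p = 4.41e-10).

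The JUN genes differed less. JUNB was at 88.2 CPM in UT SKBR3 and 65.0 CPM in UT MDA-MB-453 (0.44, SE 0.072, edgeR adjusted p = 2.30e-05). JUND was at 69.4 and 92.5 CPM (-0.42, SE 0.081, edgeR adjusted p = 0.000157), a difference that shrank to -0.18 with the correction for GC content and length. JUN, at 22.2 and 19.6 CPM, passed the threshold (0.18, SE 0.077, edgeR adjusted p = 0.0403) but lost the call without UT SKBR3 replicate 3 (0.172) or UT MDA-MB-453 replicate 2 (0.111). FOSL1 was at least 5.70-fold higher in UT SKBR3, set against a floor of 3 counts per library in MDA-MB-453, and at least 4.37-fold higher with TWEAK. FOSB was not called (1.48 and 1.46 CPM, edgeR adjusted p = 0.940). With 1 line on each side, these are differences between SKBR3 and MDA-MB-453 as lines.

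The make-up of FOS and JUN mRNA was read from shares. These are counts per kb of exon of each of the 7 FOS and JUN genes, as a percentage of their sum in each library. Protein and dimers were not measured, and ATF3 and BATF, whose proteins also pair with JUN proteins, are not in the sum. In UT SKBR3, JUNB took 46.8% ± 0.80 (SD, n = 3), JUND 35.0% ± 0.75, JUN 5.97% ± 0.35 and FOS genes together 12.2% ± 0.84. With TWEAK, JUNB took 57.4% ± 0.34 and JUND 26.8% ± 1.38. In MDA-MB-453 JUNB went from 37.6% ± 0.32 to 44.7% ± 0.79 and JUND from 50.8% ± 0.30 to 44.4% ± 0.53. Neither share overlapped between UT and TWEAK in either line (exact permutation p = 0.1 each, two-sided, the smallest that 3 against 3 libraries allow; adjusted p = 0.115 over 15 comparisons). The shares sum to 100%, so they are not separate results, and JUND itself was not called in either line.

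The ratio of JUNB to JUND sets these main JUN genes against each other. It was 1.34 ± 0.039 in UT and 2.15 ± 0.11 with TWEAK in SKBR3. In MDA-MB-453 it was 0.741 ± 0.0044 and 1.01 ± 0.025, so that JUND was ahead in UT MDA-MB-453 and JUNB in UT SKBR3. Summed FOS and JUN mRNA went from 390 ± 23.0 to 487 ± 24.9 TPM in SKBR3 and from 347 ± 13.6 to 396 ± 14.6 TPM in MDA-MB-453. JUNB alone gained 96.6 TPM of a net 96.9 TPM in SKBR3 and 46.4 of 48.4 TPM in MDA-MB-453. Groups did not overlap in these ratios and sums (exact permutation p = 0.1 each, adjusted p = 0.115).

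Per kb of exon, the FOS family as a whole took a smaller share than JUNB or JUND. Its share was 12.2% in UT and 10.8% ± 1.53 with TWEAK in SKBR3. In MDA-MB-453 it was 5.91% ± 0.48 and 5.46% ± 0.33, with overlapping groups in both lines (exact permutation p = 0.3 each, adjusted p = 0.3). Without SKBR3 TWEAK replicate 2 the SKBR3 difference was -0.51 in place of -1.40 percentage points. The UT lines did not overlap in it (12.2% against 5.91%, exact permutation p = 0.1). FOSL2 made up 81.8% ± 1.52 of FOS family mRNA in UT SKBR3 and 85% ± 1.62 with TWEAK. In MDA-MB-453 it made up 89.3% ± 1.66 and 83.8% ± 2.86. The sizes depend on length: without dividing by length, the FOS family took 31.0% (UT) and 28.9% (TWEAK) of SKBR3 counts and 17.8% and 16.2% of MDA-MB-453 counts, as FOSL2 has long exons (7162 bases against 1830 for JUNB). Without length the order against JUND turned in SKBR3. There FOSL2 alone stood above JUND, at 70.2 against 66.5 CPM in UT and 83.9 against 66.7 CPM with TWEAK.

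**Figure D3:**
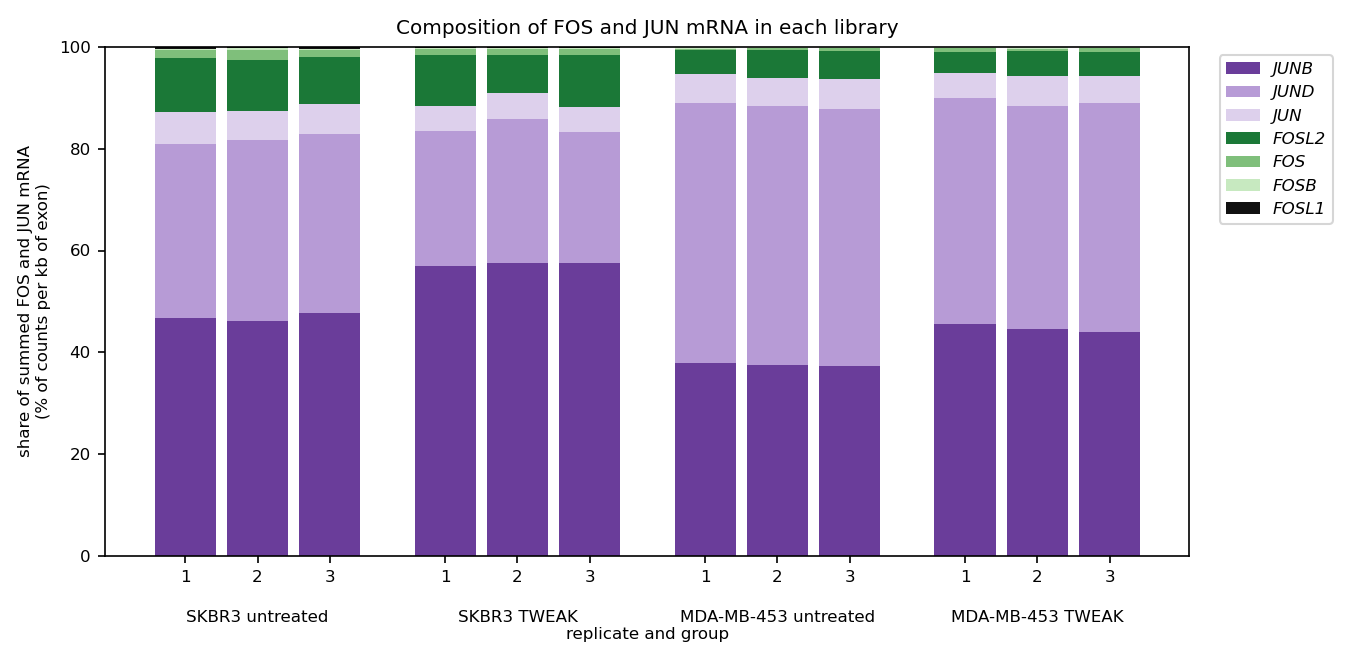
Share of each FOS and JUN gene in their summed mRNA (vertical axis, percent of counts per kb of exon) in each of the 12 libraries (horizontal axis, replicate within group), as stacked bars. JUNB (dark purple) takes 46.1 to 47.7% in UT and 57.0 to 57.6% with TWEAK in SKBR3, and 37.4 to 38% and 44 to 45.6% in MDA-MB-453.

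RefSeq start-site windows of 300 bases (250 before, 50 after) were searched for short motifs on both strands, over 9 windows of 8 AP-1 genes (2 of ATF3; FOSL1 and BATF3 not analysed here) and all 35116 windows. TATAAA was in 4 AP-1 windows (JUNB, FOS, FOSB and the second of ATF3) and in 11.5% of all windows, at any position. It began 31, 33 and 30 bases before the start in JUNB, FOS and FOSB. In the second ATF3 window it began 230 bases before the start, far from the position in the other genes. The AP-1 element TGANTCA was in 1 (FOSL2) and in 7.71% of all, and TGACGTCA in 1 (JUND) and in 1.85% of all. The NF-κB motif, which TWEAK-activated NF-κB factors can bind, and the CArG box, which serum response factor binds, were each in 0 of the 9 windows and in 5.91% and 1.29% of all. Bases more than 250 before or 50 after the start were not searched, so these genes may hold either motif outside the windows. With 9 windows and shares this low, 0 is not read as a lack of the motif. CCAAT was in 4 (34.6% of all) and GGGCGG in 7 (45.0% of all). A match describes the letters in the window and not a bound site.

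Around the AP-1 genes, 5 lists of related genes were counted by the same tests. Among AP-1 target genes, 14 of 24 tested rose and 1 fell in SKBR3 (62.5% called, beside 10.4% of all genes; median log2 fold change 0.31, where the median over all genes was -0.0074). In MDA-MB-453 1 of 16 rose and none fell (1.49% of all genes called; median 0.035 against 0.0016). In SKBR3 the target genes that rose included MMP9 (2.63) and MMP13 (2.31), matrix metalloproteinases, and IVL (1.73), an epidermal envelope protein. In MDA-MB-453 it was HMOX1 (0.27, edgeR adjusted p = 0.0801), the haem-degrading enzyme. At an unadjusted p under 0.05 MDA-MB-453 had 4 higher and 3 lower, and DESeq2 called 2. By the interaction test (3.37% of all genes called), the log2 fold change of 7 of 25 target genes was lower in MDA-MB-453 than in SKBR3 and that of 1 was higher; MMP13 (-1.94, edgeR adjusted p = 0.000356) and ODC1, the first enzyme of polyamine synthesis (-1.24, edgeR adjusted p = 7.22e-08), were among the 7, and MT2A, a metallothionein, which fell in SKBR3 (-1.62), was the 1 (1.40, edgeR adjusted p = 5.13e-06).

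Immediate-early genes other than the AP-1 genes were called in SKBR3 in both directions. There 9 of 28 tested rose and 3 fell (median 0.12), where 10.4% of all genes were called and 6.6% called higher, with ZFP36L1 (0.79), an mRNA-decay factor, IER5 (0.60) and KLF6 (0.51) up and the nuclear receptor NR4A3 (-0.72) down. In MDA-MB-453 edgeR called 0 of 27 (median 0.059), beside 1.49% of all genes, while at an unadjusted p under 0.05 2 were higher and 1 was lower, and DESeq2 called 0. In the interaction test, where 3.37% of all genes were called, the log2 fold change of 4 of 29 was lower in MDA-MB-453, ZFP36L1 among them (-0.79, edgeR adjusted p = 1.89e-05), and that of ZFP36L2, which fell in SKBR3 (-0.36), was higher (0.35).

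Kinases and factors upstream of AP-1 were the largest list. In SKBR3 6 of 35 rose and 2 fell (median -0.028), where 10.4% of all genes were called, and in MDA-MB-453 1 of 32 rose (median -0.019), where 1.49% were called. MAP3K14, which encodes the NF-κB-inducing kinase NIK, had the largest called change in SKBR3, at 1.56 (edgeR adjusted p = 4.81e-07). MAP3K14 was also the 1 gene called in MDA-MB-453, at 1.95 (edgeR adjusted p = 7.71e-09), and no other gene of the list was called there. In SKBR3 the JNK scaffold MAPK8IP2 (0.62) and the p38 kinase MAPK11 (0.60) rose, and MAP2K6 (-0.43), which phosphorylates p38 kinases, fell.

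Other basic leucine zipper genes numbered 24 tested in SKBR3, of which 5 rose and 1 fell (median 0.026, beside 10.4% of all genes called), and 23 in MDA-MB-453, of which 1 rose (median 0.0065, beside 1.49%). CEBPB, a basic leucine zipper factor of inflammatory responses, rose in both lines (0.66, edgeR adjusted p = 8.57e-05 in SKBR3; 0.26, edgeR adjusted p = 0.0310 in MDA-MB-453), and by less in MDA-MB-453 (interaction -0.40, edgeR adjusted p = 0.0161). In SKBR3 NFE2L3 (0.81) and NFE2L1 (0.43), relatives of NRF2, also rose, and CEBPD (-0.43) fell. Cofactors and ubiquitin ligases of JUN and FOS proteins gave 0 calls by edgeR in 12 genes tested in SKBR3 and 11 in MDA-MB-453. At an unadjusted p under 0.05 there were 0 in SKBR3 and 4 lower in MDA-MB-453, and DESeq2 called 0 in each line.

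The genes whose pattern was most like each AP-1 gene were found by Pearson's r of log2 CPM after centring each line, over the 12 libraries and among 13614 genes, as a description, since libraries share treatment and depth. JUNB was most like TYMP (0.989) and CKAP4 (0.985). FOSL2 was most like USP31 (0.968) and GPR107 (0.950), and FOS most like ERP44 (0.943) and PLSCR1 (0.939). JUN was most like NAB2 (0.929) and TIMM44 (0.925), JUND most like DDX49 (0.968) and RNASET2 (0.964), and FOSB most like SMIM19 (0.916) and CENPQ (0.860). ATF3 was most like IL4R (0.901) and ZFAS1 (0.898), and BATF most like MYRFL (0.886) and FADS2 (0.874). Among the AP-1 genes themselves the highest values were between JUNB and ATF3 (0.817), JUN and ATF3 (0.804) and JUNB and JUN (0.716).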

How the data were processed

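Per the labels and the study's methods, the authors prepared poly-A libraries sequenced on a HiSeqX, trimmed reads with Trimmomatic, aligned them to hg38 with STAR and counted them per gene with featureCounts. The deposited values are raw read counts, 1 table per line, for 62696 gene identifiers. Versions, annotation release, strand setting and treatment of multi-mapping reads are not given in the sources used here, and the labels and the methods name different library kits. All identifiers but 71 matched GENCODE release 44 by stem, which gave symbols, positions and exon lengths.

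From the counts, edgeR 4.0.16 in R 4.3.3 was run with filterByExpr, TMM normalisation and two-sided quasi-likelihood tests within each line (6 libraries) and over 12 libraries for the interaction and the line contrast, with Benjamini-Hochberg adjustment over all genes tested and a threshold of 0.1. CPM and TPM (union of exons) were computed here. Shares were compared by exact permutation over libraries. The authors' tool, DESeq2 (1.42.0 here), another scaling, other filters, a threshold of 0.05, a fit over all libraries, a loess correction for GC content and length, the replicate number as a block and leaving out each library were alternatives. Fitted fold changes use a prior count of 0.125. The AP-1 genes and the lists were chosen with earlier results of these data known. All AP-1 genes are named. Of each list, up to 4 called genes per line are named by the size of their change, among those with a mean of at least 1 CPM; further list genes are named in the interaction test. A gene that this rule would name is not reported here. With 24773003 to 35208304 counts per library, counting error is largest for FOSB, FOSL1 and BATF3, and for FOS, ATF3 and BATF in MDA-MB-453.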

Additional observations from a re-analysis of the deposited data

Results flagged for a closer look

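The change of FOS with TWEAK differed between the lines: it was larger in MDA-MB-453 by 1.06 on the log2 scale (edgeR adjusted p = 0.0528, interaction of line and TWEAK), with FOS higher in 3 of 3 TWEAK libraries of MDA-MB-453 than in any UT library and overlapping groups in SKBR3. The FOS counts in MDA-MB-453 were 24 to 33 in UT and 38 to 86 with TWEAK.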

How the results depend on the processing

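JUNB was called under all alternatives in both lines, and ATF3, BATF, FOS, FOSL2, JUNB and JUND kept their direction and call between the UT lines. At an adjusted p of 0.05 the AP-1 genes called higher were 1 in SKBR3 (JUNB) in place of 2, and the interaction called 0 in place of 1. With the replicate block, 1 was called higher in SKBR3, as FOSL2 lost its call (edgeR adjusted p = 0.107). In SKBR3 same-numbered libraries did not deviate together (correlations of 0.10, -0.087 and -0.14). The TWEAK deviations there are from a mean that includes replicate 2, the library that stood apart. In MDA-MB-453 these correlations were weak but positive (0.080, 0.074 and 0.025), and each library correlated best with its own number. These values do not decide whether the numbers pair the libraries of either line. The block moved the genes called among all genes from 1034 higher and 599 lower to 824 and 387 in SKBR3, and for MDA-MB-453 from 192 and 31 to 490 and 404. Over all genes, the counts called moved by more than 1.5 times also without a filter (MDA-MB-453, 302 higher and 178 lower), in the fit of all 12 libraries (lower, 1068 in SKBR3 and 13 in MDA-MB-453), at an adjusted p of 0.05 (lower, 363 and 17; interaction higher, 95 in place of 173) and in the interaction with the block (101 higher) or the GC and length correction (495 higher, and 649 lower in place of 406). With the correction for GC content and length the counts within lines were 1704 and 1288, and 276 and 118, and the interaction called 2 AP-1 genes lower in place of 0 (JUNB and FOSL2). Leaving out single libraries, the AP-1 genes called higher were 1 to 2 in SKBR3 and 1 to 2 in MDA-MB-453, and the interaction called 0 to 1 higher and 0 to 1 lower; all genes called ranged from 686 to 1589 higher and 240 to 1191 lower in SKBR3, and from 120 to 1003 and 10 to 1098 in MDA-MB-453.

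Genes that were not called and lay near 0 changed sign, for which the cause was not tested. JUND (0.0046 in SKBR3, 0.0015 in MDA-MB-453, interaction -0.0076) was at -0.0016 in MDA-MB-453 with DESeq2 size factors in edgeR and -0.0016 with DESeq2, at -0.0026 in SKBR3 and 0.0079 in the interaction without a filter, and at -0.0013 in SKBR3 with the replicate block. With the GC and length correction JUND was at -0.056, -0.046 and 0.016, FOS in SKBR3 at -0.011, BATF in SKBR3 at -0.021, FOSL2 in MDA-MB-453 at 0.031, JUN in the interaction at 0.011 and FOSB between the lines at -0.050. Leaving out single libraries, JUND ranged from -0.11 to 0.087 in SKBR3, from -0.027 to 0.032 in MDA-MB-453 and from -0.091 to 0.12 in the interaction. In SKBR3 FOS ranged from -0.052 to 0.13 and BATF from -0.090 to 0.16. In MDA-MB-453 FOSB ranged from -0.15 to 0.16 and FOSL2 from -0.080 to 0.042. In the interaction JUN ranged from -0.089 to 0.074 and ATF3 from -0.047 to 0.070, and FOSB ranged from -0.16 to 0.22 between the lines. Values within a line that kept their sign but moved by more than 1.5 times when a single library was left out included FOSL1 (-0.87 to -0.24), FOSB (-0.49 to -0.054) and JUN (0.050 to 0.20) in SKBR3 and BATF (-0.51 to -0.17) in MDA-MB-453, which were not called. The FOS family share differed with TWEAK by -1.40 percentage points in SKBR3 (-1.91 to -0.51 leaving out single libraries) and by -1.56 in MDA-MB-453 without length correction in place of -0.45. Between the UT lines it differed by 6.29 points, by 7.07 with the longest transcript as length, by 13.3 without length correction and by 6.02 to 6.77 leaving out single libraries.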
